A study of Mus musculus with 4 samples.

Results

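Plac1, Chrdl2, Bcl2l15 and 1500002F19Rik are 4 genes of the mouse mammary gland that were picked because their signal was higher in mice with a PPARd transgene than in wild-type (WT) mice of the same diet, or strongly raised in the transgenic mice on chow. They are 4 of 12394 genes named on the array, each was read by 1 probe set, and all 4 were among the 7836 genes that reached the median of all values on at least 1 array. All 4 reached that median only on arrays of transgenic mice. RNA came from mammary glands of nulliparous female FVB mice, and each of the 4 groups was 1 array of 1 RNA pool made from 5 mice. The groups were MMTV-PPARd mice on standard rodent chow, WT littermates on that chow, MMTV-PPARd mice on chow with GW501516 for 1 week, and WT littermates on chow with GW501516. The MMTV (mouse mammary tumour virus) promoter drives the transgene, is active mainly in mammary epithelium and is also known to work in salivary gland and lymphoid cells, and GW501516 is a synthetic agonist of the nuclear receptor PPARd. The GW501516 content of the diet is 0.005% by the sample sources but 0.001% by the treatment entry, which was not resolved. With 1 array per group nothing could be tested, and because the genes were chosen on these arrays, their transgene differences are a description only.

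The mammary gland of a nulliparous mouse is a tree of epithelial ducts in a fat pad. Ducts have an inner luminal layer and an outer basal layer, and in pregnancy luminal progenitors form alveoli that make milk. PPARd is a lipid-sensing receptor that binds DNA with an RXR partner and turns on genes of lipid use, more strongly when an agonist is bound. Plac1 is an X-linked gene of the trophoblast, the outer cell layer of the placenta, where it is needed for normal placental growth. It is silent in most adult tissues, and in humans it is turned on again in many tumours, those of the breast included. Chrdl2 (chordin-like 2) is a secreted protein that binds bone morphogenetic proteins (BMPs) outside the cell. Bcl2l15, also named Bfk, belongs to the BCL-2 family, whose members promote or block cell death at the mitochondrion. 1500002F19Rik is annotated in RefSeq as a long non-coding RNA.

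RefSeq places Plac1 on chromosome X, Chrdl2 and 1500002F19Rik on chromosome 7 and Bcl2l15 on chromosome 3. Promoter windows of 300 bases around annotated transcription start sites were held for 3 of the 4 genes, and 5 motifs were searched on both strands: a STAT5 site (TTCNNNGAA), a direct repeat of the nuclear receptor half-site AGGNCA spaced by 1 base, a steroid receptor palindrome (GNACA and TGTNC spaced by 3 bases), a TATA box (TATAAA) and a C/EBP site (TTGCNNAA). The windows of Plac1 and Bcl2l15 are shown because both genes were well above the floor of measurement in MMTV-PPARd glands and below it in WT glands, and because they hold the only matches found among the 3 genes. Capitals mark the C/EBP match (GRCm38.p6, each sequence on the strand of its gene).
Plac1, upstream start, chrX:53240061-53240360, minus strand: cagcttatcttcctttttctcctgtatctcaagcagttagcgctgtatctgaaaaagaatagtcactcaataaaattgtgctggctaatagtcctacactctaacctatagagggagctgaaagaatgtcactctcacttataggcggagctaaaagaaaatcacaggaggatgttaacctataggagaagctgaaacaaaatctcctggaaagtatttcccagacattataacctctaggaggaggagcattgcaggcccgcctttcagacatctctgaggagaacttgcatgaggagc
Plac1, downstream start, chrX:53114356-53114655, minus strand: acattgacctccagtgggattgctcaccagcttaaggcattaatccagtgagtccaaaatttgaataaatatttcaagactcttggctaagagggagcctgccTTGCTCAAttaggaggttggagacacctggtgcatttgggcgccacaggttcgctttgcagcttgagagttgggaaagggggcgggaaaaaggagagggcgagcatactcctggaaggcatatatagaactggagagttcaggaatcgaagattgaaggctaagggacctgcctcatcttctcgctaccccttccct
Bcl2l15, chr3:103832446-103832745, plus strand: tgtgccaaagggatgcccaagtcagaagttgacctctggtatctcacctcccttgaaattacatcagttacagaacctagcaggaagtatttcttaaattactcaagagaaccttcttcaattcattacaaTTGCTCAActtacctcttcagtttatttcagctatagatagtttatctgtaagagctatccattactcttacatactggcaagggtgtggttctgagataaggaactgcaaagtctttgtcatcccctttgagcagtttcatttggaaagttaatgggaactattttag
The downstream Plac1 window and the Bcl2l15 window held the same 8 letters, TTGCTCAA, 147 and 119 bases before the start. A C/EBP match was present in 10.8% of all 32851 windows of this length, and the exact letters TTGCTCAA, looked up after the match was seen, in 0.962%. The upstream Plac1 window and the 3 windows of 1500002F19Rik held no match to any of the 5 motifs. The STAT5 letters were present in 8.3% of all windows, the direct repeat in 0.381%, the palindrome in 0.475% and the TATA box in 13.6%. The GC content was 42.7% and 49.7% in the 2 Plac1 windows and 38.3% in the Bcl2l15 window, against a median of 52.7% over all windows, and ranged between 34.3% and 71.0% over the 3 windows of 1500002F19Rik. Which start the glands used was not measured.

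Values are probe set intensities on a linear scale. A floor was set at the 25th percentile over the arrays, 20.5, and lower readings were raised to it, so that a fold against such a value is a lower bound. Ppard, the transgene's own readout, was 1943.0 in MMTV-PPARd on chow and 2.1 in WT on chow, and 4223.5 in MMTV-PPARd on GW501516 and 1.5 in WT on GW501516. Ppard was thus high on both arrays labelled MMTV-PPARd and below the floor on both WT arrays. It was read by 1 probe set, and readings below the floor do not show that WT glands lack the receptor. The arrays were similar in median intensity, between 137.15 and 144.0, and in the share of values below the floor, between 24.2% and 25.3%. The MMTV-PPARd chow array stood apart in its hybridisation and housekeeping controls: the middle BioB probe set read 32.4 there and 438.1 to 519.0 on the other arrays, and the middle Gapdh probe set 2986.1 there and 7171.3 to 10825.8 on the others. The comparison of genotypes on GW501516 does not use that array and is given beside the comparison on chow throughout. In pooled tissue, a change in the number of cells of a type and a change in RNA per cell cannot be told apart.

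Plac1 was an on and off gene of the genotype. Its intensity was 1822.9 in MMTV-PPARd and 9.2 in WT on chow, and 2074.6 in MMTV-PPARd and 15.8 in WT on GW501516. Both WT arrays were below the floor and both transgenic arrays far above it, so that the fold was at least 88.9 on chow and at least 101 on GW501516. Within MMTV-PPARd glands the level on GW501516 was 1.14-fold that on chow, while Ppard in the same pools was 2.17-fold higher on GW501516. In WT glands no agonist difference can be given, since both values lay below the floor.

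Chrdl2 was higher in MMTV-PPARd glands on both diets and was also higher with the agonist. It read 186.1 in MMTV-PPARd and 5.5 in WT on chow, and 799.5 in MMTV-PPARd and 39.2 in WT on GW501516. The WT chow array was below the floor and the other 3 were above it. The transgene difference was at least 9.08-fold on chow and 20.4-fold on GW501516. Within MMTV-PPARd glands Chrdl2 was 4.3-fold higher on GW501516 than on chow. Within WT glands it was at least 1.91-fold higher on GW501516, a bound set by the floor.

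Bcl2l15 was high on 1 array. It read 941.2 in MMTV-PPARd and 19.6 in WT on chow, and 145.8 in MMTV-PPARd and 12.7 in WT on GW501516. Both WT arrays were below the floor, so that the transgene difference was at least 45.9-fold on chow and at least 7.11-fold on GW501516. Within MMTV-PPARd glands it was 6.46-fold lower on GW501516 than on chow. Its direction with the agonist was therefore opposite to that of Chrdl2 in the same 2 pools. The high value comes from the array on which BioB and Gapdh were low, and their part in it was not tested. On the diet that leaves that array out, Bcl2l15 was still above the floor in MMTV-PPARd glands and below it in WT glands.

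1500002F19Rik had the lowest transgenic signal of the 4 genes' probe sets and differed little between diets. It read 123.5 in MMTV-PPARd and 25.6 in WT on chow, and 139.8 in MMTV-PPARd and 28.4 in WT on GW501516. All 4 arrays were above the floor, and 1 array, at 139.8, was just above the 139 that a gene had to reach to be kept. The transgene difference was 4.82-fold on chow and 4.92-fold on GW501516. The log2 difference between these effects was 0.03. With the agonist it was 1.13-fold higher in MMTV-PPARd glands and 1.11-fold higher in WT glands.

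**Figure D1:**
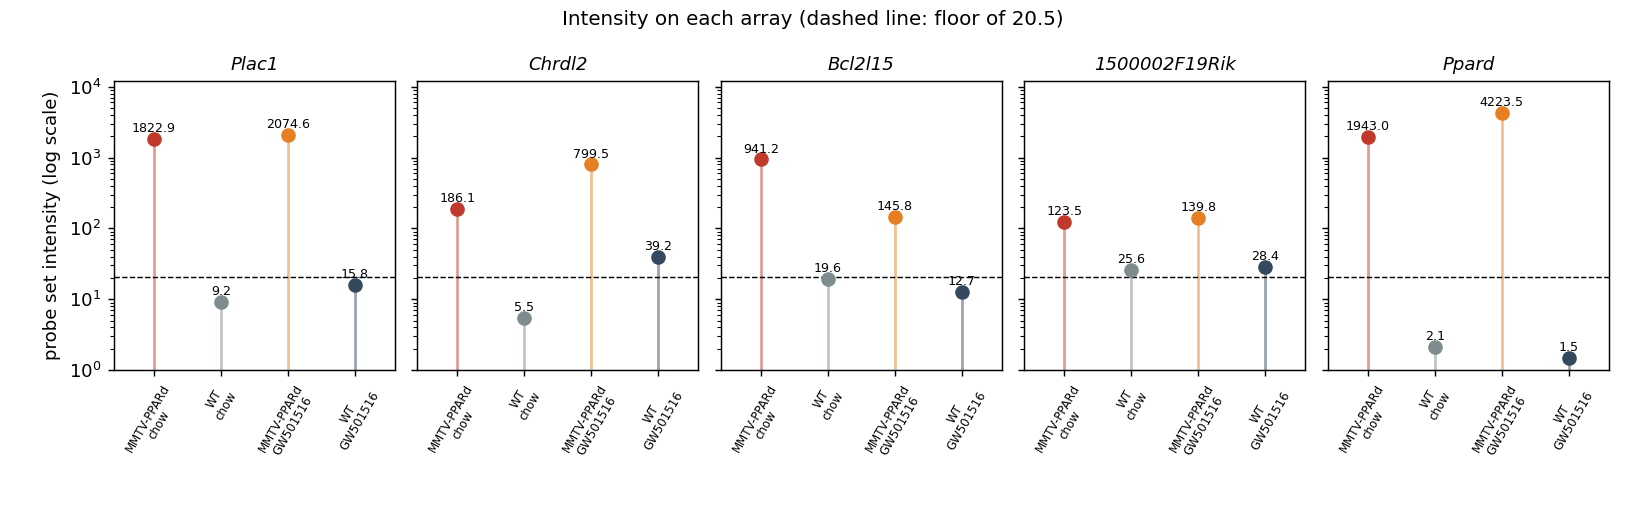
Intensity of the probe set of Plac1, Chrdl2, Bcl2l15, 1500002F19Rik and Ppard on each of the 4 arrays, on a log axis, with the floor of 20.5 as a dashed line and each point 1 array of 1 pool. Plac1, Bcl2l15 and Ppard lie below the floor on both WT arrays, Chrdl2 is higher with the transgene on each diet and with GW501516 in each genotype, and Bcl2l15 is at 145.8 in MMTV-PPARd on GW501516, against 941.2 in MMTV-PPARd on chow.

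The transgene comparisons chose the 4 genes, so nothing is read from the count of 4 of 4 at least 2-fold higher on each diet, beside 5.46% of all genes tested on chow and 2.82% on GW501516. At least 2-fold higher on both diets were 1.57% of all genes. At least 4-fold on both diets, a limit set after the values were seen, were 29 genes, 0.37% of those tested, and these include all 4. This depends on the floor. With the floor at the 40th percentile the log2 differences were 1.39 for Chrdl2 on chow and 1.04 for Bcl2l15 on GW501516. For 1500002F19Rik they were 0.80 on chow and 0.98 on GW501516, and each of these values is below 4-fold. A stricter pattern, below the floor on both WT arrays and at 139 or more on both MMTV-PPARd arrays, was also defined after seeing the values and held 5 genes: Ppard, Plac1, Bcl2l15, Olah and Ankrd22. Olah, which ends milk fatty acid chains at medium length, read 154.1 in MMTV-PPARd and 1.2 in WT on chow, and 1911.6 and 3.1 in these genotypes on GW501516. Ankrd22, an ankyrin repeat gene, read 172.6 in MMTV-PPARd and 1.6 in WT on chow, and 165.9 and 1.5 in these genotypes on GW501516. No gene showed the reverse pattern.

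**Figure D2:**
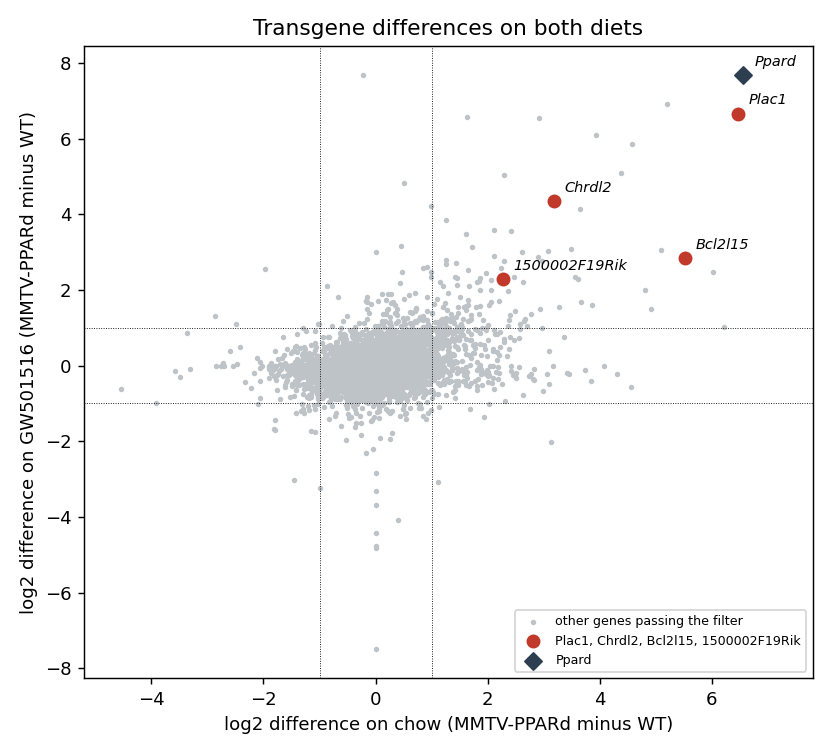
Log2 difference between MMTV-PPARd and WT on chow (x axis) against that on GW501516 (y axis) for the 7836 genes tested, with values below the floor set to it and dotted lines at 2-fold. Plac1 lies beside Ppard at the upper right, Bcl2l15 further right than up, and 1500002F19Rik near the diagonal at 2.27 and 2.30. The x position of Chrdl2, 3.18, and both positions of Plac1, Bcl2l15 and Ppard are lower bounds set by the floor.

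The agonist comparisons spread the 4 genes out. In MMTV-PPARd glands, Chrdl2 was 1 gene at least 2-fold higher on GW501516 and Bcl2l15 was 1 gene at least 2-fold lower, where 3.99% and 4.07% of all genes were, and Plac1 and 1500002F19Rik lay within 1.14-fold. In WT glands 1500002F19Rik lay within 2-fold, Chrdl2 was at least 1.91-fold higher on GW501516 with its side of 2-fold set by the floor, and Plac1 and Bcl2l15 have no value, where 3.18% of all genes were higher and 3.25% lower. The agonist comparison in MMTV-PPARd glands shares its arrays with the transgene comparisons and is not independent of how the genes were picked. For MMTV-PPARd on GW501516 against WT on chow, the fold was at least 101 for Plac1, at least 39.0 for Chrdl2, at least 7.11 for Bcl2l15 and 5.46 for 1500002F19Rik, in a comparison where 5.5% of all genes passed 2-fold upward and 4.21% downward. For Chrdl2 the transgene effect on GW501516 minus that on chow was at most 1.17 on the log2 scale and has no settled direction, since without the floor the effects were 4.35 on GW501516 and 5.08 on chow. For Plac1 and Bcl2l15 no such difference can be given because both WT values were below the floor. Over all genes this difference reached 2-fold upward in 4.43% and downward in 5.25%.

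The 4 patterns were then set against all genes tested by the root mean square distance between log2 values centred on each gene's own mean over the 4 arrays. Among themselves the 4 genes lay between 1.04 (Chrdl2 and 1500002F19Rik) and 2.14 (Plac1 and 1500002F19Rik) apart. Plac1 had 1 gene within 0.5, Bcl2l15 had 2 and Chrdl2 had 3, whereas 1500002F19Rik had 53. Over 4 arrays these distances describe the arrays and carry no more than 3 independent differences per gene.

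The gene nearest to Plac1 was Ppard, at 0.43, with both WT values of both genes at the floor. Without the floor Ppard was not among the 6 nearest, which were Ankrd22, Pigr, Olah, Wap, Aqp3 and Saa1. Next came Aqp3, a water and glycerol channel, at 0.92 and Pigr, which carries IgA across epithelium, at 1.00. Aqp3 read 780.0 in MMTV-PPARd and 51.0 in WT on chow, and 1808.5 in MMTV-PPARd and 26.4 in WT on GW501516. Wap, the whey acidic protein of milk, Gjb2, a connexin, and Saa1, an acute-phase protein, followed at 1.33 to 1.46. Each of these 5 genes was higher in MMTV-PPARd glands on both diets, and within MMTV-PPARd glands each differed between diets by at least 2.32-fold, against 1.14-fold for Plac1.

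The gene nearest to Chrdl2 was Slc34a2, a phosphate transporter, at 0.19. It read 456.0 in MMTV-PPARd and 36.3 in WT on chow, and 1631.7 in MMTV-PPARd and 92.9 in WT on GW501516. Its values were thus higher with the transgene on each diet and higher with the agonist in each genotype, the order that Chrdl2 showed. Slc28a3, a nucleoside transporter (0.40), Saa2, an acute-phase protein (0.46), the mucin Muc1 (0.55), Gldc, a glycine-cleaving enzyme (0.61), and Saa1 (0.65) came next. In MMTV-PPARd glands these 6 genes were 2.32-fold (Muc1) to 10.1-fold (Saa2) higher on GW501516 than on chow.

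The genes nearest to Bcl2l15 were the connexins Gjb6, at 0.27, and Gjb2, at 0.46. Gjb6 read 1326.4 in MMTV-PPARd and 10.5 in WT on chow, and 123.3 in MMTV-PPARd and 22.1 in WT on GW501516. Atp6v1c2, a subunit of the proton-pumping V-ATPase (0.54), Igha, the constant region of IgA (0.64), Syt9, a synaptotagmin of vesicle release (0.73), and Jchain, the joining chain of IgA (0.74), followed. All 6 were highest on the MMTV-PPARd chow array, and within MMTV-PPARd glands they were 2.87-fold (Gjb2) to 22.7-fold (Jchain) lower on GW501516. Igha and Jchain are genes of plasma cells, and the part of such cells in the Bcl2l15 values was not tested.

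The genes nearest to 1500002F19Rik were Marveld3, a tight junction protein, at 0.16 and Elf5, the transcription factor of alveolar luminal progenitors, at 0.17. Elf5 read 4920.3 in MMTV-PPARd and 882.3 in WT on chow, and 6524.0 in MMTV-PPARd and 1295.0 in WT on GW501516. Wfdc18, a secreted protein with a WAP-type domain (0.18), Tyro3, a receptor tyrosine kinase (0.21), Cadm1, a cell adhesion molecule (0.21), and Kcnn4, a calcium-activated potassium channel (0.26), were next. Their transgene differences were 3.62-fold to 5.58-fold on chow and 3.93-fold to 6.81-fold on GW501516, and none differed by 2-fold between diets in either genotype.

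**Figure D3:**
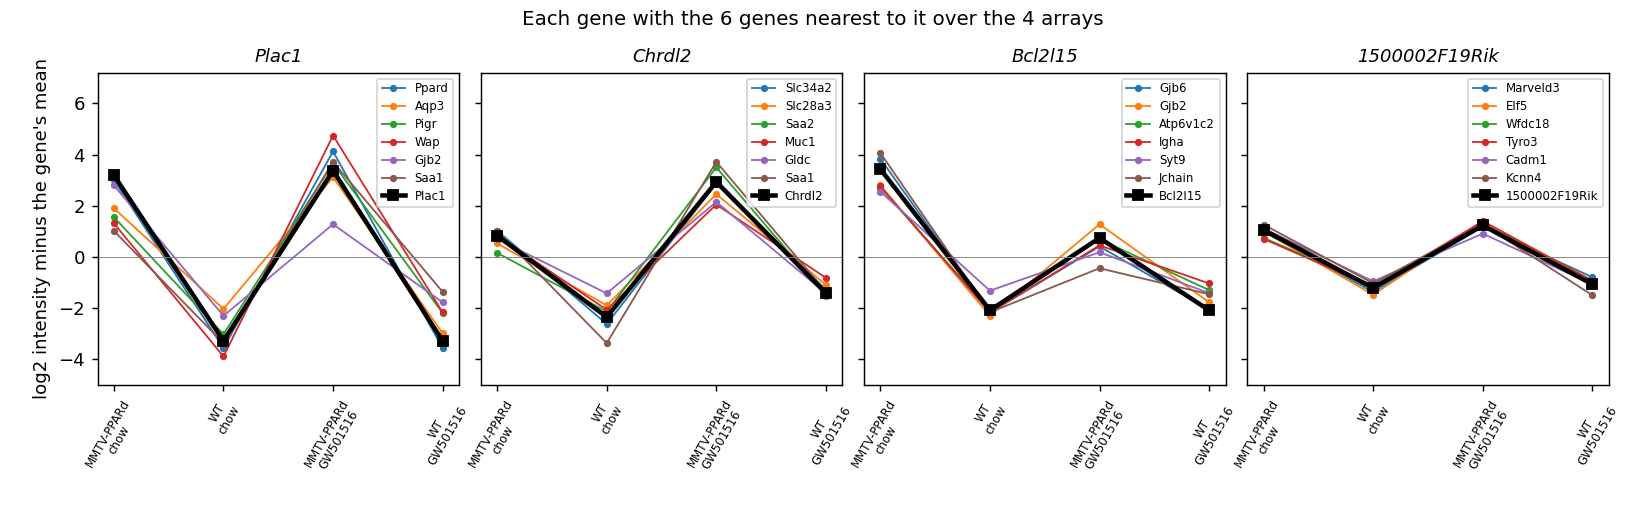
Log2 intensity minus each gene's own mean over the 4 arrays for Plac1, Chrdl2, Bcl2l15 and 1500002F19Rik (black squares) and the 6 genes nearest to each (coloured), with lines that only join the points of a gene. The MMTV-PPARd point on GW501516 lies above that on chow in the Chrdl2 panel, below it in the Bcl2l15 panel and nearly level with it for 1500002F19Rik.

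The genes beside the 4 on the chromosome were read in the same transgene comparisons. For each gene the 3 nearest measured genes on either side in RefSeq were read, 24 in all, of which 20 passed the filter. On chow, Pold3, a DNA polymerase subunit beside Chrdl2, was the 1 gene at least 2-fold higher, at 2.13-fold, and Ptpn22, a lymphocyte phosphatase beside Bcl2l15, the 1 gene lower, at 2.07-fold, where 5.46% of all genes were higher and 3.71% lower. On GW501516 none of the 20 reached 2-fold in either direction, where 2.82% of all genes were higher and 1.19% lower. These counts are near the shares over all genes, and the 4 genes were picked on these differences. Nothing is therefore read from the contrast between the 4 genes and their neighbours. Beside Plac1, Hprt, a purine salvage enzyme, read 1998.1 in MMTV-PPARd and 2168.3 in WT on chow, and 2016.7 and 2149.8 in these genotypes on GW501516. Beside Bcl2l15, Ap4b1, a subunit of an adaptor complex, was 1.12-fold higher on chow and 1.01-fold lower on GW501516. Zranb1, a deubiquitinase whose start lies opposite a start of 1500002F19Rik, was 1.10-fold and 1.01-fold higher. Lhpp, a phosphatase on the other side of 1500002F19Rik, came closest to 2-fold on GW501516, at 176.3 in MMTV-PPARd and 90.1 in WT (1.96-fold). On chow Lhpp was 1.81-fold higher.

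**Figure D4:**
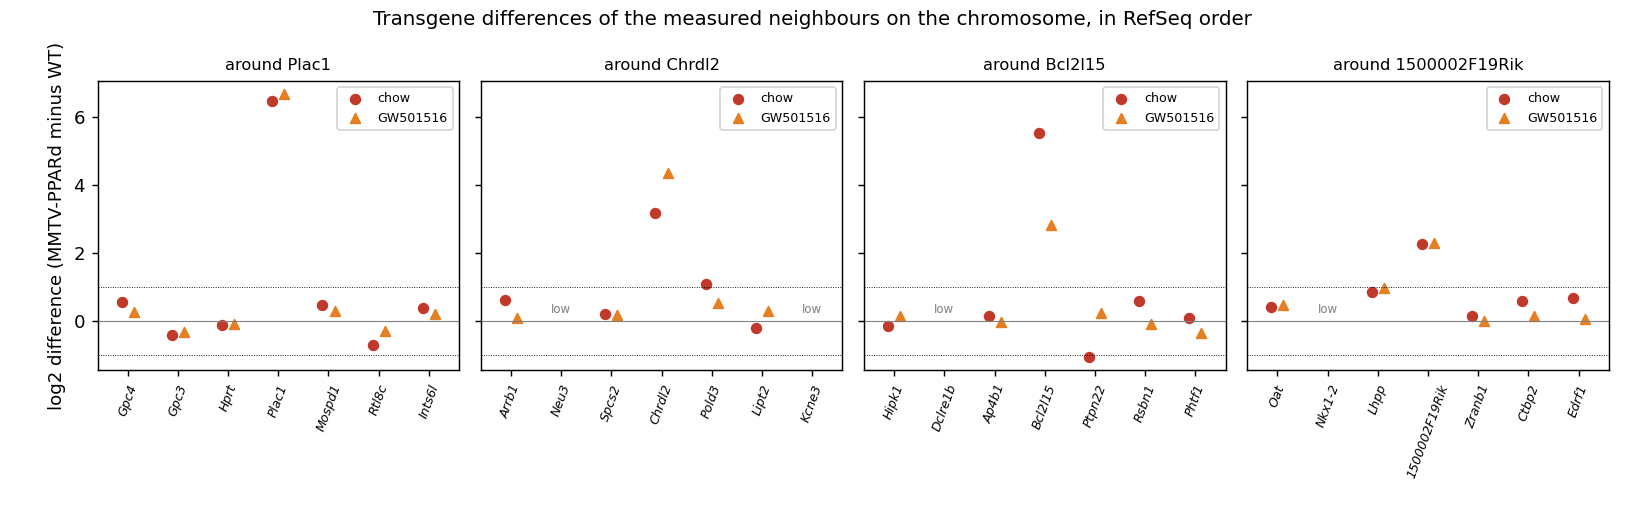
Log2 difference between MMTV-PPARd and WT on chow (circles) and on GW501516 (triangles) for Plac1, Chrdl2, Bcl2l15 and 1500002F19Rik and the 3 nearest measured genes on either side, in RefSeq order, with dotted lines at 2-fold and "low" for genes that did not pass the filter. The named gene, picked on these differences, stands above its neighbours in each panel. Of the 20 neighbours drawn only Pold3 and Ptpn22 pass 2-fold, on chow.

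Plac1 was set beside 22 other genes of trophoblast and placenta, of which 15 were on the array and 4 passed the filter. Tpbpa, the marker of the spongiotrophoblast, Ascl2, its transcription factor, Peg10 and Cdx2 were below the floor on all 4 arrays. Ctsr, a placental cathepsin, read 80.6 in MMTV-PPARd and 2.7 in WT on chow, and 173.3 in MMTV-PPARd and 31.7 in WT on GW501516. It was at least 3.93-fold higher on chow and 5.47-fold higher on GW501516. Tfap2c, a transcription factor that mammary luminal cells also use, was 4.50-fold higher on chow and 1.77-fold higher on GW501516. Ets2, a transcription factor found in many tissues, was 1.59-fold and 1.25-fold higher, and Plac8, which immune cells also express, 1.49-fold and 1.30-fold lower. Ctsr passed the filter only through MMTV-PPARd on GW501516, so no median is given. Eomes, a trophoblast stem cell factor that did not pass, was 3.04-fold lower on chow and 1.13-fold higher on GW501516. Phlda2 and Esrrb, which also did not pass, were 1.55-fold and 1.39-fold higher on chow. On GW501516 they were 1.83-fold and 1.22-fold higher.

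The BMP genes around Chrdl2 were counted at 2-fold on both diets. Of 36 listed, 33 were on the array and 19 passed the filter, and 1 was at least 2-fold higher on chow, 1 higher and 1 lower on GW501516. Over all genes the shares were 5.46% higher and 3.71% lower on chow, and 2.82% higher and 1.19% lower on GW501516. Among the ligands, Bmp2 read 37.7 in MMTV-PPARd and 146.3 in WT on GW501516, a 3.88-fold lower value, and 114.7 in MMTV-PPARd and 165.8 in WT on chow. Bmp4 was 1.71-fold lower on chow and 1.73-fold lower on GW501516. Bmp2 and Bmp4 passed the filter only through WT arrays, and Smad5 only through MMTV-PPARd on chow. The counts and the median of this list are therefore a description only. Of the receptors, Bmpr1a was 1.79-fold and 1.14-fold higher, and Bambi, a decoy receptor, 1.99-fold higher on chow and 1.21-fold lower on GW501516. Among the Id genes, which BMP signals induce, Id2, which mice need for alveolar growth, was 2.87-fold higher on chow and 2.15-fold higher on GW501516, while Id4 was 1.72-fold and 1.05-fold higher, Id1 1.66-fold and 1.22-fold lower and Id3 1.40-fold and 1.17-fold lower. The other extracellular antagonists Nog, Chrd and Chrdl1 did not pass the filter. Of those that did, Fst was 1.67-fold and 1.57-fold lower, Twsg1 1.76-fold and 1.31-fold higher, and Sostdc1 1.24-fold higher on chow and 1.76-fold lower on GW501516. The list's median log2 difference was 0.31 on chow and 0.04 on GW501516, beside 0.020 and 0.002 over all genes tested.

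The BCL-2 family around Bcl2l15 was counted in the same way. Of 22 listed genes, 18 were on the array and 13 passed the filter, with 1 at least 2-fold higher and 0 lower on each diet. The genes counted, Bik on chow and Bcl2l14 on GW501516, passed the filter only through MMTV-PPARd arrays. Nothing is therefore read from these counts against the shares over all genes, 5.46% higher on chow and 2.82% on GW501516. Bik, a BH3-only death gene, read 247.7 in MMTV-PPARd and 99.8 in WT on chow, and 169.2 in MMTV-PPARd and 109.1 in WT on GW501516, a 2.48-fold and a 1.55-fold higher value. Bcl2l14, another family member, read 234.0 in MMTV-PPARd and 130.7 in WT on chow, and 266.2 in MMTV-PPARd and 107.2 in WT on GW501516, 1.79-fold and 2.48-fold higher. The survival genes Bcl2l1 and Mcl1 were within 1.23-fold on both diets. Pmaip1 (Noxa), a BH3-only gene, was the 1 member at least 2-fold lower with the agonist in MMTV-PPARd glands, at 34.6 on GW501516 and 180.7 on chow, and it was 2.46-fold lower in WT glands. Pmaip1 passed the filter only through MMTV-PPARd on chow. The list's median, which includes Bik, Bcl2l14 and Pmaip1, was 0.09 on chow and -0.01 on GW501516.

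Many milk genes were also higher in MMTV-PPARd glands, while fewer luminal and basal genes passed 2-fold upward on GW501516 than on chow. Over all genes tested, 5.46% were higher and 3.71% lower on chow, and 2.82% higher and 1.19% lower on GW501516. The medians over all genes were 0.020 and 0.002. Among 18 genes of milk and alveoli, 11 passed 2-fold upward and 1 downward in MMTV-PPARd on chow (median log2 difference 1.45). On GW501516, 13 were higher and 0 lower (1.77). The higher genes include Glycam1, which read 8128.4 in MMTV-PPARd and 9535.2 in WT on chow, and 4206.7 and 2.2 in these genotypes on GW501516. Its difference of at least 205-fold on GW501516 thus rests on 1 WT array below the floor. All 18 listed genes passed the filter, but Wap, Csn1s2b and Olah did so only through MMTV-PPARd arrays. Lalba, the alpha-lactalbumin of milk, was the gene lower on chow, by 3.93-fold, and it was 5.84-fold higher on GW501516. Of 16 luminal genes that passed the filter, 8 were higher on chow (median 0.93) and 2 on GW501516 (0.58), Cdh1 (E-cadherin) being 4.03-fold higher on chow and 1.12-fold lower on GW501516. The luminal keratins lay within 2-fold on both diets. Krt8 was 1.02-fold lower on chow and 1.47-fold higher on GW501516, Krt19 1.24-fold lower and 1.16-fold higher, and Krt7 1.75-fold and 1.33-fold lower. Krt18 read 5851.1 in MMTV-PPARd and 5619.5 in WT on chow, and 6789.7 and 6094.3 in these genotypes on GW501516. The summed intensity of 19 luminal probe sets was 39989 in MMTV-PPARd and 28745 in WT on chow, and 42141 in MMTV-PPARd and 31870 in WT on GW501516. Of 9 basal genes, 3 were higher on chow (median 0.77) and 1 on GW501516 (0.30), with Krt14 11.3-fold and 8.41-fold higher. Krt5 was 1.77-fold higher on chow and 1.42-fold lower on GW501516, Krt17 1.70-fold higher and 1.33-fold lower, and Trp63 3.50-fold and 1.06-fold higher. Muc1 and Spint1 of the luminal genes and Krt17 of the basal genes passed the filter only through MMTV-PPARd arrays. The milk, luminal and basal counts and medians are therefore a description only. The part of more epithelium or of alveolar growth in the differences of the 4 genes was not tested.

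**Figure D5:**
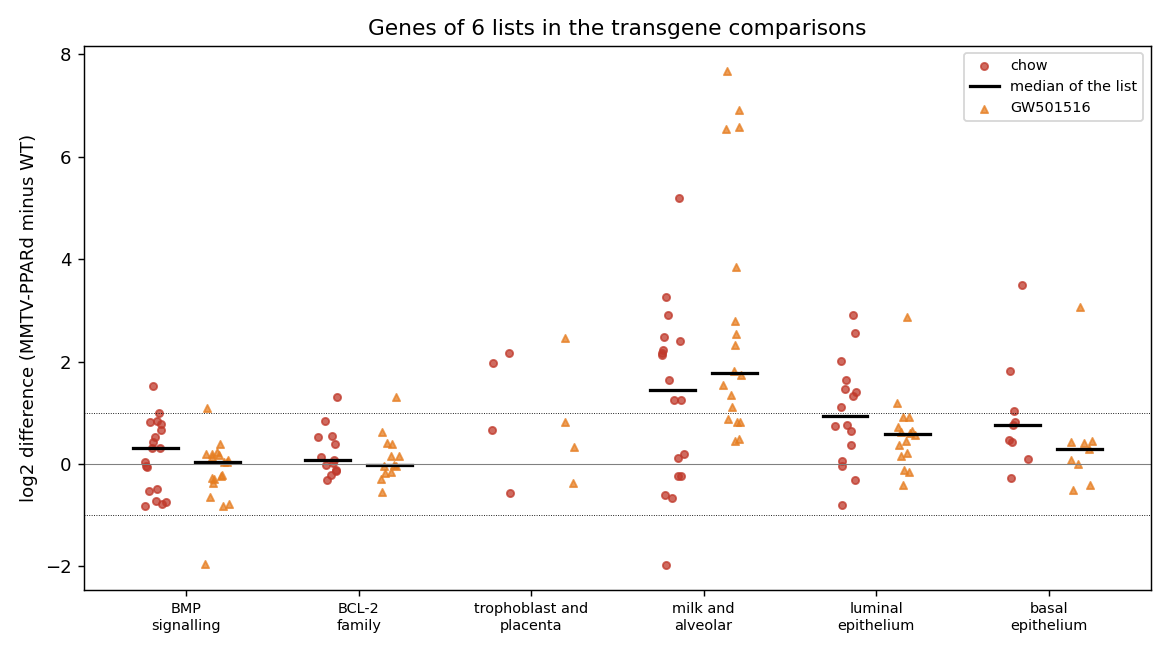
Log2 difference between MMTV-PPARd and WT on chow (circles) and on GW501516 (triangles) for the genes of 6 lists that passed the filter, with black bars at the list medians (none for trophoblast and placenta) and dotted lines at 2-fold. The BMP and BCL-2 lists have medians of 0.31 and 0.09 on chow and 0.04 and -0.01 on GW501516, while milk and alveolar genes have medians of 1.45 on chow and 1.77 on GW501516. Some genes in these lists passed the filter only through the arrays of a single genotype.

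Markers of other tissues also differed between the pools, mostly on chow. Of 20 muscle genes, 16 were at least 2-fold higher in MMTV-PPARd on chow and 0 on GW501516, where 5.46% and 2.82% of all genes were. Summed muscle intensity over 21 probe sets was 43430 in MMTV-PPARd and 18618 in WT on chow, and 146701 and 153711 in these genotypes on GW501516. T cell genes summed to 2743 and 6771 over 10 probe sets in these genotypes on chow, with Cd4 below the floor on all arrays, and to 1392 and 1540 on GW501516. Most of the GW501516 sums came from Thy1 (948.3 in MMTV-PPARd and 1009.7 in WT) and Zap70 (273.9 and 339.3). There, 5 of the 10 probe sets were below the floor in MMTV-PPARd and 3 in WT. B cell genes summed to 1717 and 3325 over 9 probe sets on chow and to 160 and 207 on GW501516. Adipocyte genes had medians of -0.47 and -0.29 and fibroblast genes of -0.51 and -0.12, on chow and on GW501516. Of 15 genes of skin and cornified epithelium, 4 passed the filter: Krt10 was within 1.17-fold on both diets, Calml3 was 10.3-fold and 1.70-fold higher, Sprr1a at least 11.2-fold and 1.23-fold lower, and Tgm1 2.03-fold lower on chow and 2.12-fold higher on GW501516. Krt1, Krt2, Flg and Ivl were below the floor on all arrays. Of 9 salivary probe sets, 5 were above the floor only in WT on GW501516, namely Bpifa2, Smr3a, Cst10, Pip and Dcpp1. Of the salivary genes that passed the filter, 4 of 7 were at least 2-fold lower in MMTV-PPARd on GW501516, where 1.19% of all genes were, Bpifa2 by at least 181-fold. These genes, Bpifa2, Smr3a, Cst10 and Pip, passed the filter only through WT on GW501516, so their count is a description only. The part of these tissues in the differences of the 4 genes was not tested.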

How the data were processed

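Mammary gland RNA pools were measured on 4 Affymetrix arrays of 22690 probe sets. The deposited values were intensities on a linear scale, from biotin-labelled cRNA per the labels' protocols; their means after trimming 2% at each end were 500.17 to 500.2 on every array. Summarisation software and genome build are not given in the sources used here. Names came from the platform annotation and, by gene ID, from RefSeq: 20393 probe sets had 1 symbol (20364 matched by ID), 691 several and 1606 none. Each of 12394 genes kept its probe set of highest mean, intensities below the 25th percentile (20.5) were raised to it before log2, and 7836 genes with at least 1 array at the median of all values (139) were kept.

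Differences are MMTV-PPARd minus WT, or GW501516 minus chow, and were counted at 2-fold. No test was possible with 1 array per group. The genes and lists were chosen with earlier results of these data known. The text names the 4 genes, Ppard, the 6 nearest genes of each and some of their measured neighbours. From each list up to 4 genes with the largest transgene difference were to be named. Some of these, such as Ehf, Cldn7, Itga6, Myh2 and Mb, were left out. Other list genes (such as Lalba, Krt7, Krt18, Bmp4, Id1, Fst, Mcl1 and Pip) were named after their values were seen. Alternatives changed the scaling, the floor, the filter and the choice of probe set. Promoter sequences are RefSeq's (GRCm38.p6). The steps were tested on simulated data, with Python 3.11.15, pandas 2.3.3 and numpy 2.4.6.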

Additional observations from a re-analysis of the deposited data

Results flagged for a closer look

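Among the nearest genes, the list genes and the neighbours that passed the filter, 5 differed at least 2-fold in opposite directions under the same comparison. None of these differences was tested. Igha, near Bcl2l15 in pattern, had a log2 difference with GW501516 of -2.30 in MMTV-PPARd glands and of 1.13 in WT glands. Cdh1, of the luminal list, had -1.17 in MMTV-PPARd glands and 1.01 in WT glands. Sprr1a, a cornified envelope gene, had at least 1.90 in MMTV-PPARd glands, where the chow value of 17.1 lay below the floor, and -1.28 in WT glands. Tgm1, a transglutaminase of the same envelope, had a transgene difference of -1.02 on chow and of 1.09 on GW501516. Lalba, of the milk list, had -1.97 on chow and 2.55 on GW501516. Each of these pairs involves the MMTV-PPARd chow array, on which BioB and Gapdh were low.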

How the results depend on the processing

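Of 139 recomputed differences of Plac1, Chrdl2, Bcl2l15 and 1500002F19Rik under the other scalings, floors, filters and probe set rules, 135 stayed on the same side of 2-fold. Each of these genes has 1 probe set, so the filters and probe set rules could not change its values. Only the scalings and floors could, and the count of 135 is no measure of stability. At the higher floor the GW501516 differences of Chrdl2 and 1500002F19Rik in WT became 0.00. With the floor at the 40th percentile (71.1), both WT values of 1500002F19Rik became bounds, its transgene differences fell to 0.80 on chow and 0.98 on GW501516 (log2), and its difference against untreated WT to 0.98. Without a floor, Chrdl2 in WT was 2.83 higher on GW501516. The stricter filter removed 1500002F19Rik. Bounds moved with the floor: Plac1 ranged from 4.68 to 7.63 on chow and Bcl2l15 from 1.04 to 3.52 on GW501516. Without a floor Ppard left the 6 genes nearest to Plac1. With the higher floor 0 of the 6 genes nearest to 1500002F19Rik and 2 of 6 for Chrdl2 and Bcl2l15 stayed the same, against 4 for Plac1. With probe sets averaged, 3 of 6 stayed for 1500002F19Rik.

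Without a filter, genes at least 2-fold lower numbered 149 for the transgene on GW501516 (93 as reported), 394 for GW501516 in WT (255) and 517 for transgene plus GW501516 (330), and the transgene effects of the diets differed for 533 upward (347) and 627 downward (411). With the stricter filter, lower genes numbered 58 for the transgene on GW501516, 206 (319) and 163 for GW501516 in MMTV-PPARd and WT glands, and 208 for transgene plus GW501516. These filters test more or fewer genes. The share upward in the difference of transgene effects was 45.8%, and 55.8% with every array moved to the same median. No paired analysis was possible because each group has 1 array. Precision is limited by having 4 arrays.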
